A study of Homo sapiens with 12 samples.

Results

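Protein phosphatases of the PPP family remove phosphate from serine and threonine, and the genes described here encode their catalytic and regulatory subunits. The members were chosen by symbol: PPP, a digit from 1 to 6, then C (catalytic) or R (regulatory). Of 79 measured symbols of that form, PPP1R10 and PPP1R15A were set aside by the rule, as were 1 pseudogene and 5 antisense or divergent transcripts that encode no subunit. This left 71 genes of the 19775 with a probe set naming 1 gene: 38 of PP1, 16 of PP2A, 5 of PP3, 7 of PP4, 1 of PP5 and 4 of PP6. The members were chosen with earlier results of these data known, and the rule itself used measured values in 1 way. Each gene was read from the probe set that was brightest over all 12 arrays, and 49 of the 71 genes have further probe sets, which are described apart.

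The arrays hold total RNA of HEK293T, a line from human embryonic kidney with the large T antigen of SV40. The cells were transfected at 25 nM for 48 hours with one of 3 siRNAs that target MED26 (titles si74, si75 and si76 for s18074, s18075 and s18076) or with non-targeting siRNA (title wt), with 3 arrays for each of the 4 groups. MED26 belongs to Mediator, which links transcription factors to RNA polymerase II. The characteristics give a different non-targeting siRNA (#2, #3 and #4) for each control array while the treatment protocol names #2 only, so the spread of the control group includes that difference. The labels do not say that the arrays of a group came from separate cultures, and p-values then measure the spread between arrays, which may be technical. This was a transient knockdown in 1 line.

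The catalytic subunits of these enzymes are few and closely related, and each works bound to other proteins that place it, restrain it or choose its substrates. PP1 pairs a catalytic subunit with one of many regulators, among them inhibitors, glycogen-targeting subunits and the myosin phosphatase targeting subunits. PP2A is built from a catalytic subunit, a scaffold (A) and an exchangeable B subunit. PP3, or calcineurin, joins a catalytic subunit to a calcium-binding one and dephosphorylates NFAT transcription factors, while PP4 and PP6 are relatives of PP2A with regulators of their own.

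MED26 was measured first as a check of the labels. Its log2 intensity was 9.84, 9.87 and 9.84 on the control arrays, 8.79, 8.69 and 8.76 with s18074, 9.41, 9.16 and 9.28 with s18075, and 8.80, 8.79 and 8.73 with s18076. All 9 knockdown arrays lay below the controls, with the s18075 arrays nearest to them. The mean of the 3 siRNAs was 53.0% of the control (log2 change −0.92 ± 0.05 SE, adjusted p = 3.76e-07) on its brightest probe set. With its 3 probe sets averaged it was −0.26 (adjusted p = 0.0277). Of 8 HEK293 markers, 7 were outside the dimmest 40% of genes, and the 2 neurofilament genes among them, NEFL and NEFM, were called lower with MED26 siRNA (−0.80 and −1.09). Of the fibroblast, blood, carcinoma and kidney tubule markers, 2 of 8, 1 of 7, 3 of 6 and 1 of 6 were outside it. From those lists COL3A1 and LUM, both dim fibroblast genes, were called lower and the tubule gene LRP2 higher, and their part in the results was not tested. Replicate 1 arrays deviated together from their group means (correlations of 0.326 to 0.439 between groups), so calls were also read in replicate 1 and in replicates 2 and 3 apart.

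A gene is called here where the Benjamini-Hochberg adjusted p over all 19775 genes was under 0.05 in limma. Changes are differences of mean log2 intensity between siRNA and control, with standard errors (SE). In the mean of the 3 MED26 siRNAs, 21 of the 71 subunit genes were called (29.6%, against 20.3% of all genes), of which 16 rose (22.5%, against 10.2%) and 5 fell (7.04%, against 10.2%). Of the members, 11 were among the dimmest 40% of genes, and the share of genes called moves with brightness. Among the 60 members outside the dimmest 40% of genes, 20 were called (33.3%, against 30.6% of such genes), 25.0% higher against 15.2% and 8.33% lower against 15.4%. The median change was 0.07 over the 71 members and −0.00 over all genes. On the arrays themselves, 12 members (16.9%) had all 9 knockdown arrays above all 3 controls, against 6.78% of genes, and 3 (4.23%) had all 9 below, against 6.43%. Without control replicate 2, 14 members were called in the mean, and in replicates 2 and 3 alone 15 were (12 higher, 3 lower).

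**Figure D1:**
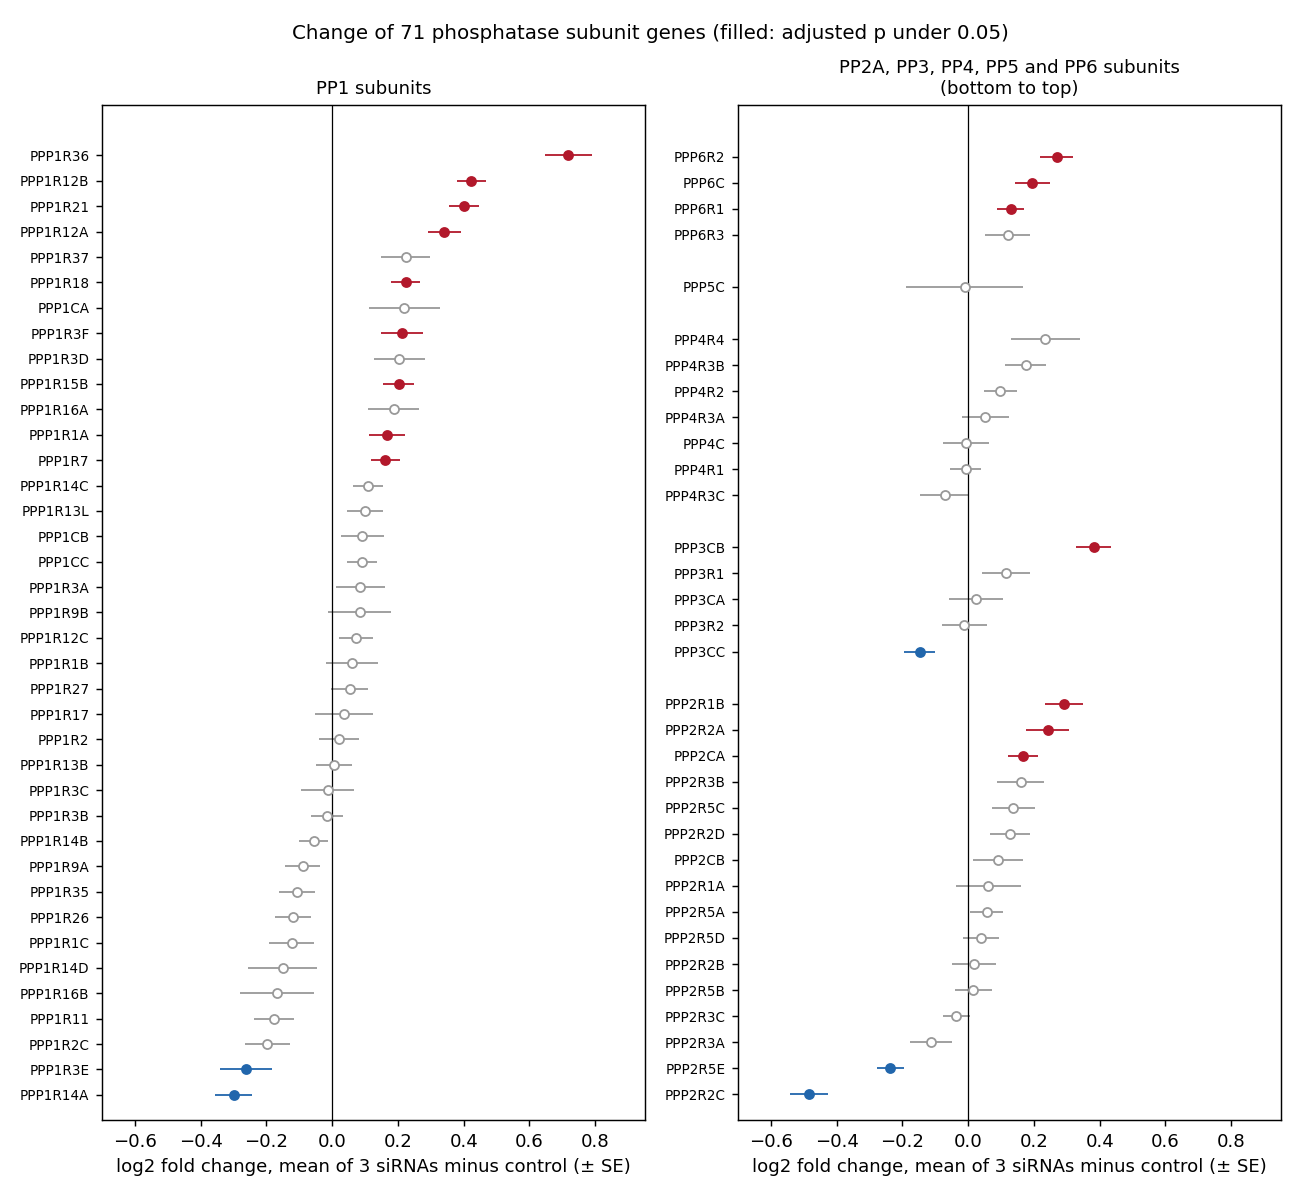
Log2 fold change (horizontal axis, mean of the 3 MED26 siRNAs minus control, bars ± SE) of each of the 71 subunit genes, PP1 genes on the left and the other groups on the right. Filled points are called, 16 to the right of 0 and 5 to the left; the farthest right is PPP1R36 at 0.72 and the farthest left PPP2R2C at −0.48.

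The 3 siRNAs were each set against the same control arrays, so their calls are not independent of one another. With s18074, 17 members were called (23.9%, against 14.2% of all genes), 12 higher (against 6.67%) and 5 lower (against 7.55%). With s18075, 16 were called (22.5%, against 16.9%), 12 higher (against 8.11%) and 4 lower (against 8.77%). With s18076, 19 were called (26.8%, against 18.9%), 15 higher (against 10.3%) and 4 lower (against 8.62%). Single arrays moved these counts. The s18074 count of 17 was 10 without s18074 replicate 2 and 11 without its replicate 3, and the s18075 count of 16 was 10 without s18075 replicate 3.

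Of the 71 genes, 8 were called with every siRNA in 1 direction (11.3%, against 6.65% of all genes). Outside the dimmest 40% of genes, 7 of 60 members were (11.7%, against 10.4% of such genes). Of the 8 genes, 7 were higher (9.86%, against 3.52% of all genes) and 1 was lower (1.41%, against 3.13%). The higher genes were PPP1R36, PPP1R12B, PPP1R21, PPP3CB, PPP1R12A, PPP2R1B and PPP1R18, and the lower gene was PPP2R2C. The count was 5 without control replicate 2 and 5 without s18074 replicate 2. PPP1R36, PPP1R12B, PPP1R12A, PPP3CB and PPP2R2C, 5 of the 8, kept their call with every siRNA whichever 1 array was left out. When a gene was instead read as the average of its probe sets, 5 of the 8 were still called with every siRNA. PPP1R12B and PPP2R2C were then called with none, and PPP3CB was called lower with s18076.

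Upstream sequence is shown for the genes with the largest rise, the largest fall and the second largest rise on the brightest probe sets. The 250 bases upstream of the outermost gene start are given, 5′ to 3′ on the gene's strand. These bases are the stretch of genome next to where these transcripts begin. They are from RefSeq on GRCh38.p14: PPP1R36 at chr14:64549711-64549960 on the plus strand, PPP1R12B at chr1:202348449-202348698 on the plus strand, and PPP2R2C at chr4:6563800-6564049 on the minus strand. Capitals mark matches on either strand to 7 motifs that were searched for. These were the TATA box with the letters TATAAA, the CCAAT box, the GC box with the letters GGGCGG, the E-box with the letters CACGTG, the cAMP response element (CRE) with the letters TGACGTCA, the ETS site with the letters CCGGAAG, and the NRF1 palindrome. Matches of 1 motif to itself may overlap, as in the window of PPP2R2C.
PPP1R36: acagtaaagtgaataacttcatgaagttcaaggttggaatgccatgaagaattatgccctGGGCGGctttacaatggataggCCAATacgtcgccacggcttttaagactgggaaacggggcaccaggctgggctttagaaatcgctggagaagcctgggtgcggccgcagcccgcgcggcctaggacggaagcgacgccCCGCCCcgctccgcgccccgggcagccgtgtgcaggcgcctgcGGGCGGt
PPP1R12B: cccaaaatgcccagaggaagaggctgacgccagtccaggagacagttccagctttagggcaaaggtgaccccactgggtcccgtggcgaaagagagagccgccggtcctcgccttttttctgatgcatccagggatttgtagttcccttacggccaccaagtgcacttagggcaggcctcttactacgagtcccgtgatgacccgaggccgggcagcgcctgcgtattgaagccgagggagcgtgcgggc
PPP2R2C: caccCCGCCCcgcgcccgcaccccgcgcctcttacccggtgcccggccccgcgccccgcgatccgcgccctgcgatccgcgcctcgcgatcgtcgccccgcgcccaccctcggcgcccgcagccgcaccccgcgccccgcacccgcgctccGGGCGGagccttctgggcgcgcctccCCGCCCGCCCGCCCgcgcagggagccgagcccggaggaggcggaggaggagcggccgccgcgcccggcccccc
The windows differ in their base content, with 61.6%, 60.8% and 86.0% G or C, against a median of 62.4% over 15843 protein-coding genes and 67.0% over the 56 members with a window. The PPP1R36 window holds a CCAAT box and GC boxes, that of PPP2R2C GC boxes, and that of PPP1R12B no match. A GC box was found in 56% of coding windows and in 71.4% of the members' windows (40 of 56), including 5 of the 6 genes called with all siRNAs that have a window. For the CCAAT box the shares were 34.5% and 42.9%, with 2 of those 6, and for the TATA box 9.23% and 3.57%, with 0 of the 6. The E-box was in 7.84% of all windows and 3.57% of the members', the CRE in 2.32% and 3.57%, the ETS site in 11.8% and 7.14%, and the NRF1 palindrome in 1.48% and 0.

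Of the 38 PP1 genes, 11 were called in the mean of the 3 siRNAs (28.9%, against 29.6% of all members and 20.3% of all genes). Of these, 9 were higher and 2 lower, against 10.2% of all genes each way, and the median change was 0.08. Of 13 regulators outside the inhibitor and the glycogen and myosin targeting classes, 5 were called, all higher. Of 5 myosin phosphatase targeting subunits, 2 were called, both higher. Of 6 glycogen-targeting subunits, 1 was higher and 1 lower, and the 11 inhibitors likewise gave 1 higher and 1 lower. None of the 3 catalytic subunits was called by limma, and none had an unadjusted p under 0.05.

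PPP1R36, named as a PP1 regulatory subunit, had the largest change of the 71 genes on the brightest probe sets. Its log2 intensity was 5.59, 5.62 and 5.59 on the control arrays, 6.46, 6.72 and 6.34 with s18074, 6.17, 6.19 and 6.32 with s18075, and 6.20, 6.13 and 6.30 with s18076. The lowest knockdown array lay clearly above the highest control. The mean change was 0.72 ± 0.07, or 1.64-fold (adjusted p = 2.6e-05). It is among the dimmest 40% of genes and has 1 probe set, and it was the 1 dim member of 11 that was called. Its rise was 0.91 with s18074, 0.63 with s18075 and 0.61 with s18076, and the test between siRNAs gave an adjusted p of 0.0601.

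Both main myosin phosphatase targeting subunits rose. PPP1R12A (MYPT1) brings PP1 to myosin light chains in many cell types, and PPP1R12B (MYPT2) is its relative known from striated muscle. PPP1R12B measured 7.63, 7.72 and 7.64 on the controls, 8.01, 7.99 and 8.0 with s18074, 8.15, 8.0 and 8.07 with s18075, and 8.24, 8.15 and 8.17 with s18076. PPP1R12A measured 10.49, 10.27 and 10.38 on the controls, 10.69, 10.69 and 10.64 with s18074, 10.74, 10.68 and 10.76 with s18075, and 10.80, 10.78 and 10.73 with s18076. In neither gene did knockdown and control arrays overlap. The mean changes were 0.42 ± 0.05 (1.34-fold, adjusted p = 4.58e-05) for PPP1R12B and 0.34 ± 0.05 (1.27-fold, adjusted p = 0.000433) for PPP1R12A. In replicate 1 alone they were 0.50 and 0.25, and in replicates 2 and 3 they were 0.38 and 0.39. The third PPP1R12 gene, PPP1R12C, changed by 0.07 ± 0.05 (adjusted p = 0.375), and PPP1R16A (MYPT3) by 0.19 ± 0.08 (adjusted p = 0.114). PPP1R14A (CPI-17), an inhibitor of myosin phosphatase, moved the other way. Its values were 8.83, 8.80 and 8.99 on the controls, 8.54, 8.62 and 8.63 with s18074, 8.65, 8.65 and 8.79 with s18075, and 8.45, 8.49 and 8.32 with s18076. Every knockdown array was below every control, by a narrow margin with s18075, and the mean change was −0.30 ± 0.06 (adjusted p = 0.0025).

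PPP1R21, a subunit of an endosomal complex that carries mRNA, rose by an amount that differed between siRNAs. It measured 9.29, 9.33 and 9.44 on the controls, 9.53, 9.66 and 9.58 with s18074, 9.80, 9.83 and 9.76 with s18075, and 9.87, 9.89 and 9.87 with s18076. The 3 sets of knockdown arrays did not overlap one another or the controls. The mean change was 0.40 ± 0.05 (1.32-fold, adjusted p = 7.67e-05), and the siRNAs differed (adjusted p of the F test 0.0103), with 0.24 for s18074, 0.44 for s18075 and 0.52 for s18076. The call with s18074 was lost without control replicate 2 (adjusted p = 0.0525) and without s18074 replicate 2 (0.0704). PPP1R18 (phostensin), which ties PP1 to actin filaments, measured 7.65, 7.73 and 7.76 on the controls, 8.03, 8.01 and 8.04 with s18074, 7.90, 7.89 and 7.90 with s18075, and 7.83, 7.88 and 7.95 with s18076. All knockdown arrays were above the controls, the s18076 arrays least so, and the mean change was 0.22 ± 0.04 (adjusted p = 0.00282). Its calls with s18075 and s18076 were near the threshold (adjusted p = 0.0314 and 0.0388). The first was lost without control replicate 1 or 2 or any s18075 array (adjusted p of 0.0614 to 0.101), and the second in 10 of 12 fits that left out 1 array (0.0507 to 0.153), the exceptions being control replicate 3 and s18076 replicate 1.

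The other 5 PP1 genes called in the mean changed by 0.26 or less. PPP1R15B (CReP), which directs PP1 to the translation factor eIF2α, measured 11.35, 11.35 and 11.36 on the controls and from 11.35 to 11.64 on the knockdown arrays, 8 of which were above all controls. Its change was 0.20 ± 0.05 (adjusted p = 0.00934), and 0.11 ± 0.06 with s18076, where it was not called. PPP1R7 (SDS22), a regulator of PP1 assembly, changed by 0.16 ± 0.04 (adjusted p = 0.018). That call was lost without control replicate 1 (adjusted p = 0.0916) or 2 (0.0532). PPP1R1A (inhibitor-1) changed by 0.17 ± 0.05 (adjusted p = 0.0451), and 9 of the 12 arrays ended its call when left out (adjusted p of 0.0546 to 0.219), the exceptions being control replicate 3, s18074 replicate 1 and s18076 replicate 2. Of the glycogen-targeting subunits, PPP1R3F rose by 0.21 ± 0.06 (adjusted p = 0.0301) and PPP1R3E fell by 0.26 (SE 0.08, adjusted p = 0.0349). Leaving out 1 of 6 arrays ended the call of PPP1R3F (control replicates 1 and 2, s18074 replicate 2, s18075 replicates 2 and 3, s18076 replicate 2; adjusted p of 0.0507 to 0.167). The same held for 6 arrays and PPP1R3E (control replicates 1 and 2, s18074 replicate 2, s18075 replicate 2, s18076 replicates 2 and 3; 0.0508 to 0.17).

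The PP1 catalytic subunits themselves were not called. PPP1CA measured 11.99, 11.84 and 11.66 on the controls and from 11.78 to 12.32 on the knockdown arrays, with the replicate 1 array highest in each group. Its change was 0.22 ± 0.11 (adjusted p = 0.186). PPP1CB and PPP1CC both changed by 0.09, with SE of 0.07 and 0.05 (adjusted p = 0.391 and 0.21). The ranges of control and knockdown arrays overlapped in all 3 genes.

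In PP2A, 5 of 16 genes were called in the mean (31.2%, against 20.3% of all genes and 30.6% of those outside the dimmest 40%), 3 higher and 2 lower, with a median change of 0.06. The enzyme's parts did not move alike. Of the scaffold pair, PPP2R1B rose, while PPP2R1A, the A subunit of most PP2A in cells, changed by 0.06 ± 0.10 (adjusted p = 0.737). PPP2R1B measured 11.04, 10.80 and 10.86 on the controls, 11.21, 11.13 and 11.15 with s18074, 11.28, 11.09 and 11.25 with s18075, and 11.20, 11.23 and 11.19 with s18076. The knockdown arrays were above the controls, although control replicate 1 lay just below s18075 replicate 2. The mean change was 0.29 ± 0.06 (1.22-fold, adjusted p = 0.0034). Its call with s18074 (0.26, adjusted p = 0.0278) was lost without control replicate 2 or 3 or any s18074 array (adjusted p of 0.0609 to 0.11). The difference between PPP2R1A and PPP2R1B was not tested.

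The B subunits went in both directions. PPP2R2C (B55γ), a B subunit best known from brain, measured 7.33, 7.41 and 7.26 on the controls, 6.90, 6.75 and 6.89 with s18074, 6.79, 6.68 and 6.58 with s18075, and 7.0, 7.07 and 6.97 with s18076. No knockdown array reached the controls, and the s18076 arrays lay nearest to them. The mean change was −0.48 ± 0.06 (0.715-fold, adjusted p = 8.96e-05), the largest fall of the 71 genes on the brightest probe sets. The siRNAs differed (F test, adjusted p = 0.0197): −0.48 with s18074, −0.65 with s18075 and −0.32 with s18076. The 5 further probe sets of PPP2R2C were not called in the mean. PPP2R2A (B55α), the widely expressed member of the same class, rose by 0.24 ± 0.06 (adjusted p = 0.0186), a call lost without control replicate 2 (0.098) or 3 (0.0825). PPP2R5E (B56ε) measured 11.27, 11.29 and 11.24 on the controls, 11.02, 11.09 and 11.09 with s18074, 11.07, 11.13 and 11.14 with s18075, and 10.87, 10.94 and 10.92 with s18076. All 9 knockdown arrays were below the controls and those of s18076 were lowest, with a mean change of −0.24 ± 0.04 (adjusted p = 0.00136). None of the 3 B″ genes was called by limma (1 at an unadjusted p under 0.05), and of the 5 B56 genes PPP2R5E alone was.

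**Figure D2:**
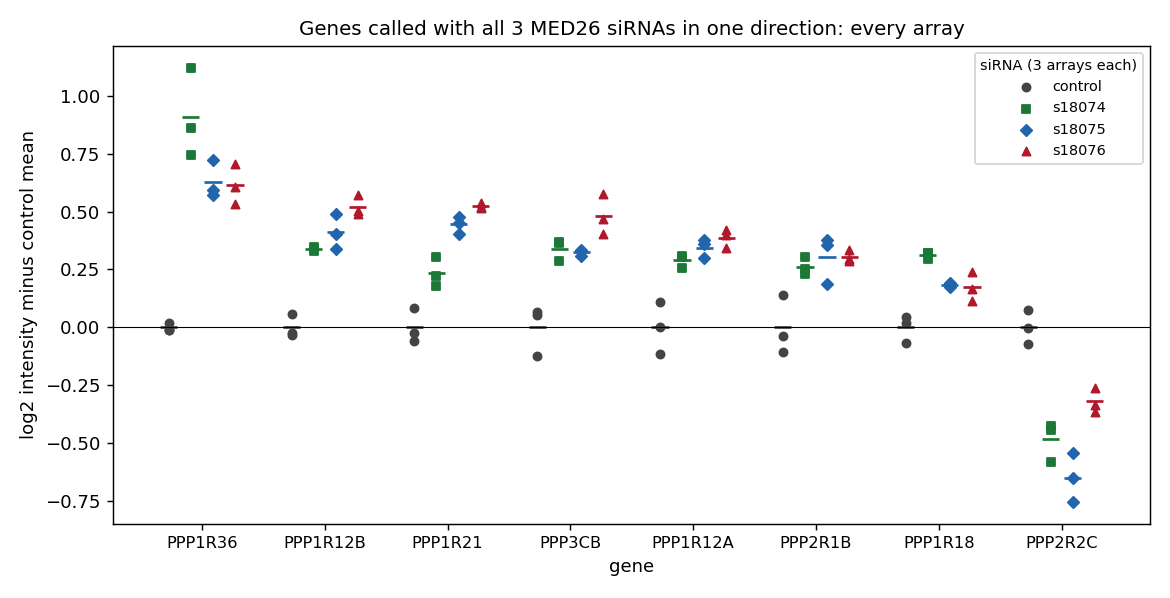
Log2 intensity minus the mean of the 3 control arrays (vertical axis) on every array for the 8 genes called with all 3 MED26 siRNAs, ordered by their mean change; symbols are arrays and short bars group means. PPP1R36, PPP1R12B, PPP1R21, PPP3CB, PPP1R12A, PPP2R1B and PPP1R18 lie above their controls on all 9 knockdown arrays, and PPP2R2C below.

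PPP2CA, 1 of the PP2A catalytic genes, was called on its brightest probe set. It measured 12.24, 12.21 and 12.08 on the controls, 12.44, 12.37 and 12.36 with s18074, 12.41, 12.31 and 12.38 with s18075, and 12.30, 12.25 and 12.27 with s18076. The knockdown arrays were all above the controls, with s18076 just so, and the change was 0.17 ± 0.05 (adjusted p = 0.0233). The call was lost without control replicate 3 (adjusted p = 0.127). Its other probe sets fell, as given with the further probe sets. PPP2CB changed by 0.09 ± 0.07 (adjusted p = 0.461).

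In calcineurin (PP3), 2 of 5 genes were called in the mean, both catalytic and in opposite directions. Of all genes 20.3% were called, and of those outside the dimmest 40% it was 30.6%. PPP3CB (calcineurin Aβ) measured 10.72, 10.70 and 10.53 on the controls, 11.02, 10.94 and 11.01 with s18074, 10.98, 10.98 and 10.96 with s18075, and 11.22, 11.05 and 11.12 with s18076. Controls and knockdown arrays did not overlap, and the change on this brightest probe set was 0.38 ± 0.05 (1.30-fold, adjusted p = 0.000296). The gene's other probe set did not follow it. PPP3CC (calcineurin Aγ) changed by −0.15 ± 0.05 (adjusted p = 0.0429). Its call was lost in 10 of 12 fits that left out 1 array (adjusted p of 0.0565 to 0.174), the exceptions being control replicate 3 and s18074 replicate 2. PPP3CA (calcineurin Aα) measured 11.05, 10.83 and 10.64 on the controls and from 10.75 to 11.03 on the knockdown arrays, within the control range, with a change of 0.02 ± 0.08 (adjusted p = 0.889). The regulatory subunits PPP3R1 and PPP3R2, the calcium-binding B chains, changed by 0.12 ± 0.07 and −0.01 ± 0.07 (adjusted p = 0.325 and 0.94).

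PP6 had 3 of 4 genes called in the mean, all higher (against 10.2% of all genes and 15.2% of those outside the dimmest 40%). Each single siRNA called 1 of the 4 (25.0%), and 0 were called with all 3 siRNAs. For genes outside the dimmest 40% the shares were 21.7%, 25.6% and 28.6% with s18074, s18075 and s18076. PPP6R2 was called with s18074 and s18076, PPP6C with s18075 and PPP6R1 with no single siRNA. The median change in the mean of the siRNAs was 0.16. With all probe sets averaged the median was 0.07 and the call of PPP6R2 was lost, at 0.00. PPP6C, the catalytic subunit, measured 12.38, 12.44 and 12.44 on the controls, 12.49, 12.64 and 12.61 with s18074, 12.63, 12.72 and 12.77 with s18075, and 12.45, 12.60 and 12.62 with s18076. All knockdown arrays were above the controls, s18074 and s18076 replicate 1 by little, and the change was 0.20 ± 0.05 (1.15-fold, adjusted p = 0.0198). That call was lost without control replicate 1 (adjusted p = 0.0847) or 2 (0.0527). PPP6R1, PPP6R2 and PPP6R3 encode the SAPS-domain subunits that bind PPP6C. PPP6R2 measured 9.17, 9.21 and 9.12 on the controls, 9.35, 9.40 and 9.45 with s18074, 9.32, 9.36 and 9.39 with s18075, and 9.68, 9.49 and 9.51 with s18076. Every knockdown array was above the controls, and the change was 0.27 ± 0.05 (1.21-fold, adjusted p = 0.00222). PPP6R1 changed by 0.13 ± 0.04 (adjusted p = 0.0488), and its call was lost in 10 of 12 fits that left out 1 array (adjusted p of 0.0638 to 0.206), the exceptions being control replicate 3 and s18076 replicate 2. PPP6R3 changed by 0.12 ± 0.07 (adjusted p = 0.273) and differed between siRNAs (0.18, 0.26 and −0.08 with s18074, s18075 and s18076).

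PP4 gave no call in the mean of the siRNAs on the brightest probe sets. Limma called 0 of its 7 genes, and 2 had an unadjusted p under 0.05. The catalytic subunit PPP4C measured 11.73, 11.63 and 11.38 on the controls and from 11.49 to 11.67 on the knockdown arrays, inside the control range, with a change of −0.01 ± 0.07 (adjusted p = 0.969). Of its regulators, PPP4R4 changed by 0.24 ± 0.11 and PPP4R3B by 0.18 ± 0.06 (adjusted p = 0.149 and 0.0667). Among 24 alternative settings, PPP4R4 was called in the mean in 4 and PPP4R3B in 9. Of the 5 further probe sets of PPP4R3B, 1 was called in the mean by limma, and it fell (−0.48 ± 0.06, adjusted p = 0.000344). PPP5C, the single PP5 gene, was not called by limma either (−0.01 ± 0.18, adjusted p = 0.979, unadjusted p above 0.05). Its values followed the replicate number. They were 9.42, 9.27, 9.52 and 9.52 on the replicate 1 arrays of the 4 groups and from 8.67 to 9.12 on the others.

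Set side by side, the groups differed in their share of calls, and the differences between groups were not tested. The medians of the mean changes were 0.16 for PP6, 0.08 for PP1, 0.06 for PP2A, 0.05 for PP4 and 0.02 for PP3. On single arrays, the PP6 median lay from 0.08 to 0.25 above the control mean on the 9 knockdown arrays and between −0.02 and −0.01 on the controls. For PP4 the knockdown arrays (−0.03 to 0.11) overlapped the controls (−0.05 to 0.09), and the same held for PP3 (−0.05 to 0.21 against −0.12 to 0.07). The medians of PP1 (−0.02 to 0.12 against −0.02 to 0.01) and PP2A (−0.01 to 0.13 against −0.05 to 0.03) overlapped as well. Over the enzymes, 4 of 11 catalytic genes were called (36.4%; 3 higher, 1 lower) and 17 of 60 other genes (28.3%; 13 higher, 4 lower), against 20.3% of all genes and 10.2% each way. Of genes outside the dimmest 40%, 30.6% were called, 15.2% higher and 15.4% lower. The catalytic calls were those of PPP2CA, PPP3CB, PPP3CC and PPP6C. With all probe sets averaged, PPP6C alone kept its call (0.21). PPP2CA was then called lower (−0.19), and PPP3CB and PPP3CC (both −0.03) were not called. Among the other genes, PPP1R1A, PPP1R3F, PPP1R7, PPP2R2A, PPP2R2C and PPP6R2 lost their call as well. All 21 genes called in the mean had the same sign in the replicate 1 arrays alone and in the arrays of replicates 2 and 3. They had been called on these same arrays, so this is a description and not an independent check.

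**Figure D3:**
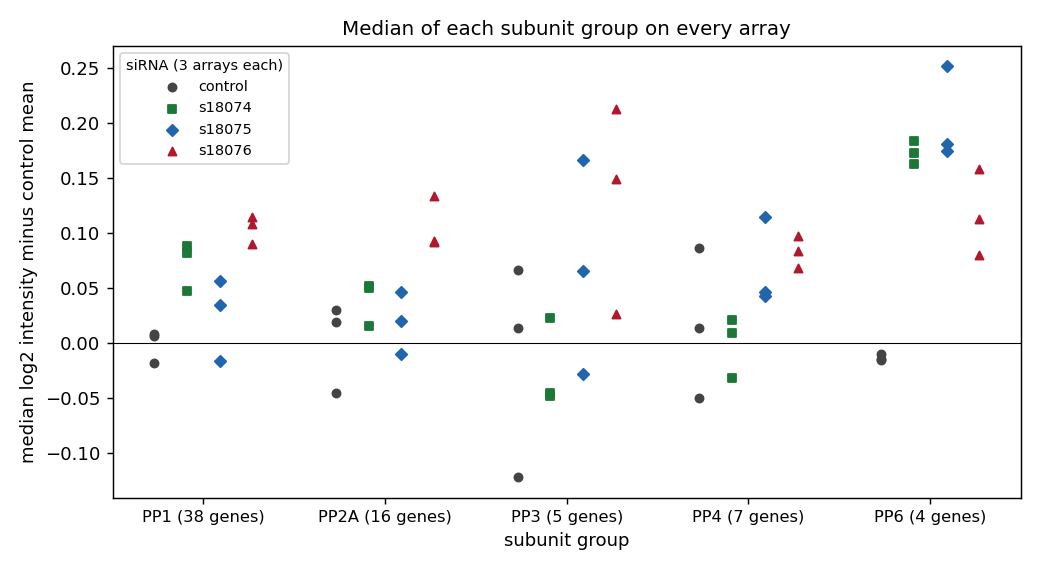
Median over the genes of each subunit group of log2 intensity minus the control mean (vertical axis), 1 symbol per array. The PP6 medians of the 9 knockdown arrays (0.08 to 0.25) sit above the 3 controls, while those of PP1, PP2A, PP3 and PP4 overlap theirs.

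The 3 siRNAs did not act alike on every gene. An F test between them called 14 of the 71 genes (19.7%, against 12.6% of all genes). Outside the dimmest 40% of genes it called 23.3% of members, against 19.5% of genes. The count of 14 fell to between 4 and 8 without control replicate 2 or without any 1 of the 9 knockdown arrays (4 without s18075 replicate 3). In the pairwise comparisons, 12 members were called between s18076 and s18075 (16.9%, against 11%), 8 of them higher with s18076 (against 6.57%) and 4 lower (against 4.44%). Between s18075 and s18074, 5 were called (7.04%, against 6.37%), 2 higher with s18075 (against 2.82%) and 3 lower (against 3.55%). Between s18076 and s18074, 4 were called (5.63%, against 5.11%), all higher with s18076 (against 2.84% higher and 2.27% lower).

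PPP1R26, a nucleolar PP1 regulator, was called in opposite directions by 2 siRNAs, the 1 member of 71 to do so (0.759% of all genes were). It measured 8.64, 8.70 and 8.75 on the controls, 8.63, 8.53 and 8.47 with s18074, 8.29, 8.13 and 8.23 with s18075, and 9.03, 8.98 and 8.89 with s18076. The s18076 arrays were all above the controls and the s18075 arrays all below. The change was −0.48 ± 0.07 with s18075 (adjusted p = 0.000329) and 0.27 ± 0.07 with s18076 (adjusted p = 0.0114), and the 2 siRNAs differed by 0.75 ± 0.07 (adjusted p = 1.18e-05). With s18074 it was −0.15 ± 0.07 (adjusted p = 0.165).

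PPP1R14C (KEPI) and PPP1R14B (PHI-1) are relatives of the inhibitor PPP1R14A. PPP1R14C measured 10.05, 10.20 and 10.10 on the controls, 10.33, 10.25 and 10.34 with s18074, 9.94, 9.96 and 9.99 with s18075, and 10.40, 10.35 and 10.46 with s18076. It was called higher with s18076 (0.29 ± 0.06, adjusted p = 0.00345) and with s18074 (0.19 ± 0.06, adjusted p = 0.0397), and the s18075 arrays lay below the controls without a call (−0.15, adjusted p = 0.0939). PPP1R14B was called lower with s18075 (−0.19 ± 0.05, adjusted p = 0.0291), and its changes with s18074 and s18076 were both 0.01. The s18074 call of PPP1R14C was lost in 8 of 12 fits that left out 1 array (adjusted p of 0.0531 to 0.125), the exceptions being control replicate 2 and the s18076 arrays. That of PPP1R14B was lost without control replicate 2 or 3 or any s18075 array (0.0633 to 0.0878). PPP1R35, a centriole protein, was called lower with s18074. It measured 10.30, 10.38 and 10.28 on the controls and 9.95, 9.93 and 10.04 with s18074 (−0.34 ± 0.07, adjusted p = 0.00443), against changes of −0.05 with s18075 and 0.07 with s18076. The s18074 values of PPP1R35 did not overlap those of any other group. PPP1R16A was called with s18076 (0.38 ± 0.09, adjusted p = 0.0127), and PPP2R5A (B56α) was too (0.19 ± 0.06, adjusted p = 0.0408). The call of PPP2R5A was lost in 9 of 12 fits that left out 1 array (adjusted p of 0.0508 to 0.132), the exceptions being control replicate 1, s18074 replicate 1 and s18076 replicate 3.

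A further 3 genes were called with 1 siRNA and neither in the mean nor by the F test. PPP1R11 (inhibitor-3) fell by 0.24 with s18074 (SE 0.07, adjusted p = 0.0477), a call lost in 9 of 12 fits that left out 1 array (0.0598 to 0.156), the exceptions being control replicate 3, s18074 replicate 1 and s18076 replicate 1. PPP1R3D, a glycogen-targeting subunit, rose with s18076 by 0.36 ± 0.09 (adjusted p = 0.0186), a call lost without s18076 replicate 2 or 3 (0.0532 and 0.055). PPP1R37 rose with s18076 by 0.33 ± 0.09 (adjusted p = 0.0249), a call lost without control replicate 1 or 2 or s18076 replicate 2 or 3 (0.0655 to 0.0973).

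**Figure D4:**
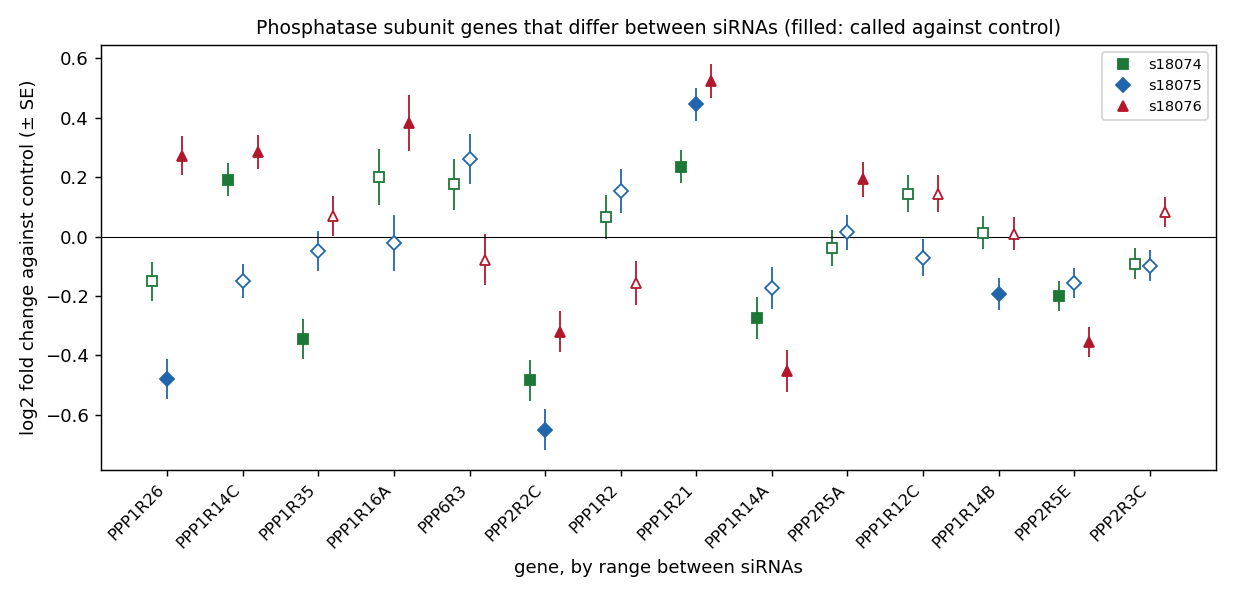
Log2 fold change against control (vertical axis, bars ± SE) with each of the 3 MED26 siRNAs for the 14 subunit genes that the F test called, ordered by the range between siRNAs; filled symbols are called against control. PPP1R26 spans from −0.48 with s18075 to 0.27 with s18076, while PPP2R2C and PPP1R21 were called with all 3 siRNAs on 1 side of 0.

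For 49 genes the array carries further probe sets (104 in all). Probe positions were not used here, so probe sets that disagree were not placed on the transcripts. They were tested in a fit over all 41091 probe sets that name 1 gene, where 15.4% were called in the mean, and their adjusted p-values are from that fit. Of the 104, 6 were called higher and 7 lower in the mean. With s18074 they were 5 and 6 (9.65% of all such probe sets were called), with s18075 7 and 7 (12.5%), and with s18076 6 and 8 (13.5%). Of the 21 genes called on the brightest probe set, 16 have another. In 6 of these 16 another one was called with the same sign (PPP2R1B, PPP1R12A, PPP1R21, PPP6C, PPP1R3E and PPP2R5E), in 10 none was, and in 2 of those 10, PPP3CB and PPP2CA, one was called in the opposite direction. PPP2R1B rose on 2 others by 0.45 ± 0.06 and 0.47 ± 0.07, more than on its brightest. PPP1R12A rose on another by 0.52 ± 0.12 (adjusted p = 0.0118). The 5 further probe sets of PPP2R2C were not called in the mean by limma, with changes from −0.15 to 0.06. Averaging all probe sets of a gene ended or turned 9 of the 21 calls. The mean change became 0.00 for PPP6R2, 0.04 for PPP2R2A, 0.10 for PPP1R1A, −0.03 for PPP3CC and −0.10 for PPP2R2C, and it turned to −0.06 for PPP1R3F, −0.02 for PPP1R7, −0.03 for PPP3CB and −0.19 for PPP2CA, where the fall was called (adjusted p = 0.0155). For PPP1R12B it was 0.16, called in the mean (adjusted p = 0.0408), but with single siRNAs it was 0.13, 0.17 and 0.18 and not called (adjusted p = 0.22, 0.0808 and 0.061 with s18074, s18075 and s18076). For PPP2R2C the single siRNAs gave −0.11, −0.10 and −0.09 (adjusted p = 0.286, 0.299 and 0.328).

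PPP3CB gave the widest split. Its further probe set 209817_at measured 10.06, 10.07 and 10.08 on the controls, 10.22, 10.15 and 10.19 with s18074, 10.12, 10.03 and 10.08 with s18075, and 8.59, 8.60 and 8.57 with s18076. The s18076 arrays stood alone, at 35.8% of the control. The change with s18076 was −1.48 ± 0.05 (adjusted p = 9.46e-08), and s18076 differed from s18075 by −1.49 ± 0.05 (adjusted p = 3.64e-08), while the brightest probe set of the same gene rose with s18076 by 0.48. PPP2R5E had a like pattern in size but fell on both. Its probe set 227630_at measured 9.85, 9.83 and 9.97 on the controls, 9.37, 9.63 and 9.49 with s18074, 9.28, 9.39 and 9.42 with s18075, and 8.61, 8.74 and 8.73 with s18076. All siRNA arrays were below the controls and those of s18076 far below, at 43.9% of the control (−1.19 ± 0.08, adjusted p = 2.79e-06), against −0.35 on the brightest probe set. PPP2CA fell on both of its others, by 0.31 (SE 0.10, adjusted p = 0.0482) on 238719_at and by 0.42 (SE 0.09, adjusted p = 0.00651) on 235502_at.

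3 genes that were not called in the mean on their brightest probe set were called in the mean on another, and they are named for that. PPP2R5C (B56γ) rose on 1554364_at by 0.97 ± 0.10 in the mean (adjusted p = 7.71e-05), and by 1.04, 0.88 and 0.99 with s18074, s18075 and s18076, while its brightest probe set gave 0.14. PPP2R2D (B55δ), a mitotic B subunit, fell on 225066_at by 0.66 (SE 0.06, adjusted p = 1.61e-05), and changed by −0.64, −0.63 and −0.72 with the 3 siRNAs, while its brightest gave 0.13. PPP4R3B, a PP4 regulator, fell on 222270_at by 0.48 (SE 0.06, adjusted p = 0.000344), against an uncalled rise of 0.18 on its brightest. In each of these genes the 3 siRNAs gave changes of 1 sign on the probe set named.

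**Figure D5:**
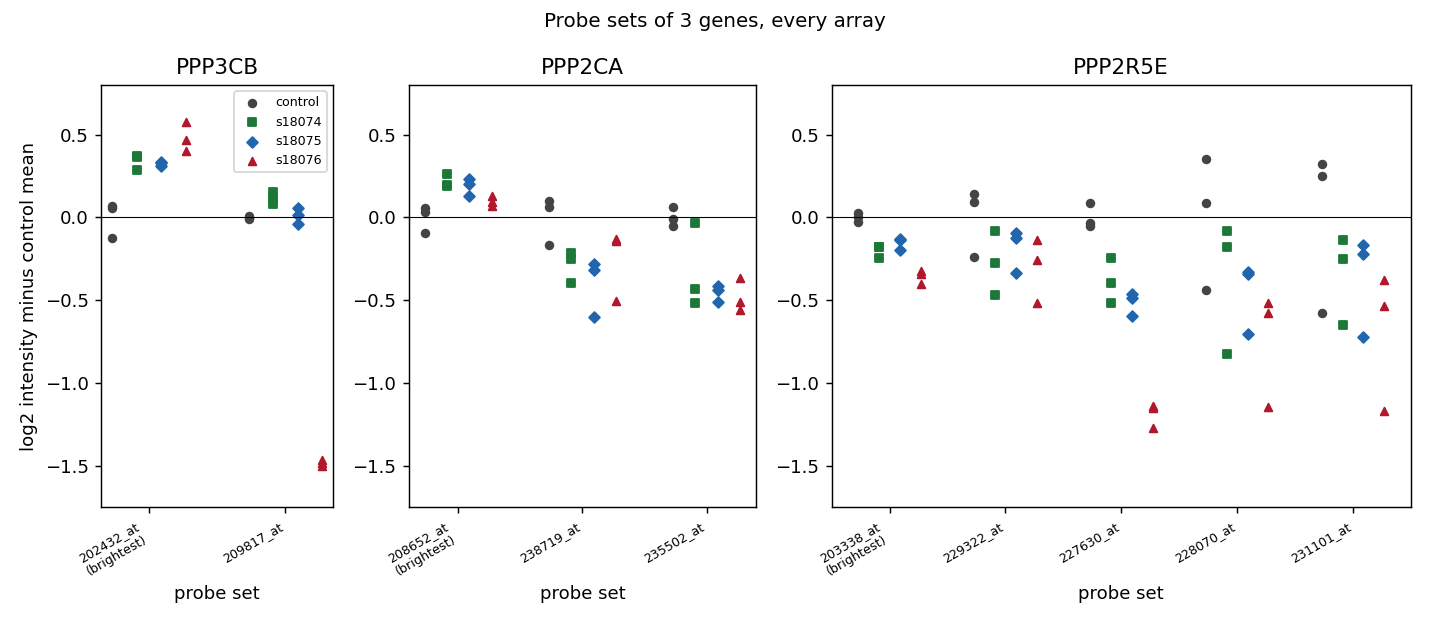
Log2 intensity minus the control mean (vertical axis) on every array for each probe set of PPP3CB, PPP2CA and PPP2R5E, with the brightest first. The brightest probe set of PPP3CB lies above 0 on the 9 knockdown arrays while 209817_at drops to −1.48 with s18076, and the probe sets of PPP2CA split in sign.

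Genes that work with these enzymes under other symbols were counted over 5 lists. Of all genes, 20.3% were called in the mean (10.2% each way). Outside the dimmest 40% of genes 30.6% were (15.2% higher, 15.4% lower). The list counts were not split by brightness, so an excess over 20.3% may reflect brightness and was not tested. Of 20 PP1 partners, 9 were called in the mean (45%; 5 higher, 4 lower). RIF1, which brings PP1 to replicating chromatin, fell by 0.33 (SE 0.06, adjusted p = 0.00105), the kinase LMTK2 rose by 0.34 ± 0.06 and the anchor AKAP11 by 0.33 ± 0.10, and the actin-binding PHACTR1 changed by −0.39 ± 0.12 (adjusted p = 0.0323). Of 19 measured genes of PP2A assembly, its inhibitors and the STRIPAK complex, 9 were called (47.4%; 5 higher, 4 lower). CIP2A, an inhibitor of PP2A, rose by 0.44 ± 0.07 (adjusted p = 0.00095), and SGO1, which holds PP2A at centromeres, fell by 0.54 (SE 0.07, adjusted p = 0.000124). STRIP2 of STRIPAK rose by 0.46 ± 0.05 and INTS6, which ties PP2A to the Integrator complex, by 0.34 ± 0.06. SGO1 and STRIP2 changed by much the same amount with each siRNA, −0.57, −0.55 and −0.51 for the first and 0.52, 0.41 and 0.45 for the other.

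Of 13 measured calcineurin regulators and NFAT genes, 3 were called (23.1%), all higher. They were NFATC1 (0.37 ± 0.05, adjusted p = 0.000214), NFATC4 (0.24 ± 0.07, adjusted p = 0.0278) and RCAN2 (0.33 ± 0.09, adjusted p = 0.0243), a calcineurin-binding regulator. Of 7 partners of PP4, PP5 and PP6, 1 was called (14.3%), the PP6 ankyrin subunit ANKRD44 (0.50 ± 0.11, adjusted p = 0.00713). Of 17 measured metal-dependent PPM phosphatases, which share the chemistry but not the fold of the PPP family, 7 were called (41.2%), 2 higher (11.8%) and 5 lower (29.4%). PPM1L (−0.49 ± 0.07), PPM1E (−0.36 ± 0.06) and PPM1M (−0.32 ± 0.06) were called lower with all siRNAs, and PPM1B (−0.32 ± 0.04) had changes of −0.00, 0.08 and −1.02 with s18074, s18075 and s18076. For PPM1B, s18076 differed from s18075 by −1.10 ± 0.05 (adjusted p = 5.55e-08). The medians of the 5 lists were −0.05, 0.05, −0.01, 0.02 and −0.10, in the order given here, beside −0.00 over all genes.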

How the data were processed

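Total RNA (300 ng) was labelled as biotinylated cRNA, per the labels' protocols. The deposited probe set intensity values are linear and, per the submitters' processing notes, were made by the authors with RMA in affy 1.24.2, which corrects background, quantile-normalizes and summarises probes; a change in RNA per cell cannot be seen. The design had assumed log2 values; log2 was therefore taken here, with no pseudocount. Probe sets naming 1 gene (41091 of 54675, platform annotation) were reduced to the brightest of each gene, 19775 in all. Limma 3.58.1 (R 4.3.3) fitted 4 group means with 8 residual degrees of freedom. The fit was run on simulated data with independent noise on each array. That run could not show how the shared deviation of the replicate 1 arrays bears on the calls. The number of arrays limits the precision.

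The members, gene lists and tests were chosen with earlier results of these data known. Named members were the catalytic and scaffold genes, those called with all siRNAs, and, in each group, the largest called changes, the largest ranges between siRNAs, opposite calls and opposite further probe sets. PPP1R1A, PPP1R3F, PPP1R7, PPP1R15B, PPP1R2, PPP1R12C, PPP1R11, PPP1R3D, PPP1R37, some uncalled members, PPP2R2D, PPP2R5C and PPP4R3B fall outside that rule and were named after their values were seen. From each list, up to 4 called genes were named. Alternatives were another scaling, a pseudocount of 16, other moderation, a filter, all probe sets averaged, batch terms and left-out arrays.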

Additional observations from a re-analysis of the deposited data

Results flagged for a closer look

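In 14 subunit genes the changes against control differed between the 3 MED26 siRNAs by an F test in limma (adjusted p under 0.05 over all genes), and the size given is the range of the 3 log2 changes. The widest range was that of PPP1R26, 0.751 (adjusted p = 3.12e-05), where s18075 and s18076 were called in opposite directions. PPP1R14C followed with 0.435 (0.000479) and PPP1R35 with 0.414 (0.00284), the first low with s18075 and the other low with s18074. PPP1R16A had 0.402 (0.034), highest with s18076. PPP6R3 had 0.339 (0.0401) and PPP1R2, the inhibitor-2 gene, 0.308 (0.0338), both with changes of 0.26 and 0.15 with s18075 against −0.08 and −0.16 with s18076. PPP2R2C had 0.33 (0.0197) and PPP1R21 0.289 (0.0103), each called with all siRNAs. PPP1R14A had 0.279 (0.0468) and PPP2R5E 0.199 (0.0401), lowest with s18076. PPP2R5A had 0.232 (0.0448) and PPP2R3C 0.18 (0.049), highest with s18076. PPP1R12C had 0.216 (0.0467) and PPP1R14B 0.206 (0.0328), lowest with s18075. The comparisons share the control arrays, but the F test is between the siRNA groups. With averaged probe sets 8 genes were called in place of 14, and with replicates 2 and 3 alone 2 were.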

How the results depend on the processing

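Of 73 gene results called here (a subunit gene in the mean or with 1 siRNA), 27 kept direction and call in every alternative run. Of 211 results not called, 49 were called in some alternative. Scaling moved the median of all genes by less than 0.1. The cause of the following differences was not tested, beyond the fewer arrays or stricter threshold that some settings have by construction. At an adjusted p under 0.01, 12 members were called in the mean, 8 with s18074, 9 with s18075, 11 with s18076, 5 with all siRNAs and 3 by the F test. Fitting only the arrays compared gave 8 with s18074, 10 with s18075 and 5 with all, and it does not apply to the F test. A replicate 1 term gave 25 with s18075, 29 with s18076 and 13 with all, and array weights gave 26 with s18075. Replicates 2 and 3 alone gave 9 with s18074, 2 by the F test and a PP4 median of 0.139. Averaging all probe sets gave 8 by the F test and medians of 0.0386 for PP1, 0.0183 for PP2A, −0.00621 for PP4 and 0.0712 for PP6. It turned PPP1R3F (mean −0.0577, s18075 −0.0221), PPP1R7 (mean −0.0193), PPP2CA (mean −0.189, s18074 −0.133, s18075 −0.221), PPP3CB (mean −0.0348, s18076 −0.4999) and PPP2R5A (s18076 −0.0109). Leaving out 1 array gave 14 to 22 calls in the mean, 10 to 18 with s18074, 10 to 18 with s18075, 14 to 19 with s18076, 5 to 10 with all siRNAs and 4 to 14 by the F test. MED26 then ranged from −0.937 to −0.896 (−0.955 in replicates 2 and 3 alone, −0.265 with all probe sets averaged), and the medians from 0.0661 to 0.0844 for PP1, 0.0392 to 0.0942 for PP2A, 0.00287 to 0.129 for PP3, 0.0315 to 0.139 for PP4 and 0.155 to 0.186 for PP6. The labels number the replicates of each group from 1 to 3 without saying that a number is shared. Deviations from the group means correlated at 0.326 to 0.439 between replicate 1 arrays, −0.024 to 0.248 for replicate 2 and 0.0344 to 0.169 for replicate 3, so the numbers were not taken as pairs. With the replicate number as a block, 28 members were called in the mean, 23 with s18074, 24 with s18075, 26 with s18076, 11 with all and 17 by the F test.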
